A study of Mus musculus with 6 samples.

Results

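The small Maf genes Maff, Mafg and Mafk encode 3 short basic leucine zipper (bZIP) transcription factors, and they were picked out by their gene symbol in a transcript table that lists 13659 symbols in all. All 3 were present, with 8 transcripts between them, and each value below is the sum of a gene's listed transcripts. The libraries came from MC3T3-E1 subclone 4, a clonal mouse line from calvaria (the flat bone of the skull) with osteoblast-like properties, so the groups describe 1 cell line in culture and not bone. The 3 libraries called vehicle 1 to 3 came from cells given vehicle, and the 3 called PTH 1 to 3 from cells given recombinant PTH(1-34), the amino-terminal part of parathyroid hormone. The labels name no genetic change and no dose, and they disagree on the time: the sample characteristics say 30 min, the treatment protocol 2 h. Nothing in the labels says that libraries of a group were separate cultures, so p-values reflect only how far these particular samples differed, and that spread may be technical.

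Small Maf proteins hold a DNA-binding region and a leucine zipper but no activation domain of their own. As pairs of small Maf proteins they occupy Maf recognition elements without activating them. Paired with a CNC (cap'n'collar) family factor they bind antioxidant response elements, where Nrf2 (encoded by Nfe2l2) activates and Bach1 represses, and Keap1 keeps Nrf2 low by directing its degradation. Parathyroid hormone raises cyclic AMP in osteoblasts and thereby switches on protein kinase A, whose best known nuclear targets are the CREB family factors that bind the cyclic AMP response element (CRE).

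All 7 osteoblast markers looked up were measured; Runx2, Alpl and Spp1 lay between 53.0 and 747.5 FPKM in all 6 libraries, and Pth1r, the receptor of the hormone, between 15.2 and 51.9 FPKM. The markers themselves moved in both directions: Sp7, an osteoblast transcription factor, fell from a mean of 42.7 to 6.79 FPKM (log2 -2.56, SE 0.24; adjusted p = 0.000283 by limma), and Bglap, which encodes osteocalcin, rose from 5.04 to 26.9 FPKM (log2 2.35, SE 0.36; adjusted p = 0.00204 by limma). Runx2 was the other marker to rise, by little and close to the threshold of 0.05 (log2 0.24, SE 0.08; adjusted p = 0.0434 by limma). In this fit 2 of the 7 markers rose and 1 fell, where 10.8% of all genes tested were called higher and 41.0% lower. With the library number as a replicate block, Pth1r (log2 -0.81, SE 0.05) and the bone matrix gene Ibsp (log2 -0.43, SE 0.10) were called lower as well (adjusted p = 0.000149 and 0.0126 by limma). A lower call was common with that block, where 49.97% of all genes tested were called lower. Of 7 markers of other cell types, the cartilage gene Col2a1 had values here, and the other 6 were not analysed here. Col2a1 stood at 0.959, 2.79 and 3.76 FPKM in vehicle 1, 2 and 3 and at 1.83, 4.89 and 6.27 FPKM in PTH 1, 2 and 3, higher with PTH at each number though the groups overlapped. Its log2 difference of 0.69 did not pass (adjusted p = 0.303 by limma) and did with the replicate block (0.000336). The part of these marker changes in the results below was not tested. The libraries numbered 1 stood apart on some of these markers: Ibsp stood at 28.5 (vehicle 1) and 22.4 FPKM (PTH 1) but at 58.6 to 99.0 FPKM in the other 4 libraries. The small Maf rises below passed without either of them. FPKM counts fragments relative to transcript length and library total, and the depth of the libraries is unknown because the low values show no whole-read steps. Over the genes tested, the median FPKM lay at 11.8 to 11.9 in vehicle and at 10.8 to 10.9 with PTH. Centring each library on its median moved the median log2 change of all genes from -0.15 to -0.03 and the share of calls that were lower from 79.2% to 56.7%, so values are also given relative to that median.

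The sequence around the start of each gene is shown first because the CRE is an element bound by known targets of the hormone's pathway. Any part of the CRE in the rises below was not tested. The letters are those of RefSeq on GRCm38.p6 (the assembly of mm10), 250 bases before to 50 after each start, and 5 such windows matched the 3 genes by symbol. Maff (ENSMUSG00000042622) spans bases 79346621 to 79359076 of chromosome 15 (mm10, plus strand), and its windows stand at 3 alternative first exons. The 250 bases before the start of Maff-201, its main transcript here, lie in no exon of Maff and are printed with the CRE in capitals.

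Maff-201, chr15:79347270-79347519, plus strand: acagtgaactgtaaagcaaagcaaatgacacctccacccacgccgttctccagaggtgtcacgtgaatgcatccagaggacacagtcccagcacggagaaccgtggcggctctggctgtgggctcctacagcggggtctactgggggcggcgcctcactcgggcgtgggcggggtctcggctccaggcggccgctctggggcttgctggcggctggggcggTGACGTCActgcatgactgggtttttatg

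This window holds 1 full CRE, spelled TGACGTCA on either strand, with its first base at position -29 from the start. A full CRE was present in 1.79% of all 32851 promoter windows of this length. Neither Mafg (ENSMUSG00000051510; chromosome 11, 120625117 to 120633600, minus strand) nor Mafk (ENSMUSG00000018143; chromosome 5, 139791513 to 139802653, plus strand) had one. Each of these had 1 copy of the shorter CRE core, TGACG on either strand, which also lies on each strand within the full CRE and which 20.8% of all windows hold. To compare the sites, 30 bases around each are printed with the TGACG core, and its mirror copy in Maff, in capitals.

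Maff, chr15:79347478-79347507, plus strand: gcggctggggcggTGACGTCActgcatgac
Mafg, chr11:120633553-120633582, minus strand: accaaacatcatgTGACGtctgaggagcgg
Mafk, chr5:139791482-139791511, plus strand: gggggcggggcggTGACGcgcttcgacgcg

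The core began at position -22 from the RefSeq start of Mafg and at -41 from that of Mafk. The Mafg site falls inside the first exon of Mafg-201 in GENCODE M21, which starts further upstream. The other Maff windows held 1 core (at position -122 from the start of Maff-204) and no core (at Maff-203), and neither transcript was analysed here. The core of the antioxidant response element, TGACNNNGC on either strand, was found once in the window of Maff-203, once in that of Mafg and once in that of Mafk, against 12.4% of all windows, and overlapped no CRE core. No window of the 3 genes held the AP-1 site TGANTCA, which 7.81% of all windows hold. A match describes letters and not binding, and the start of Maff-202 has no window in the table.

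**Figure D1:**
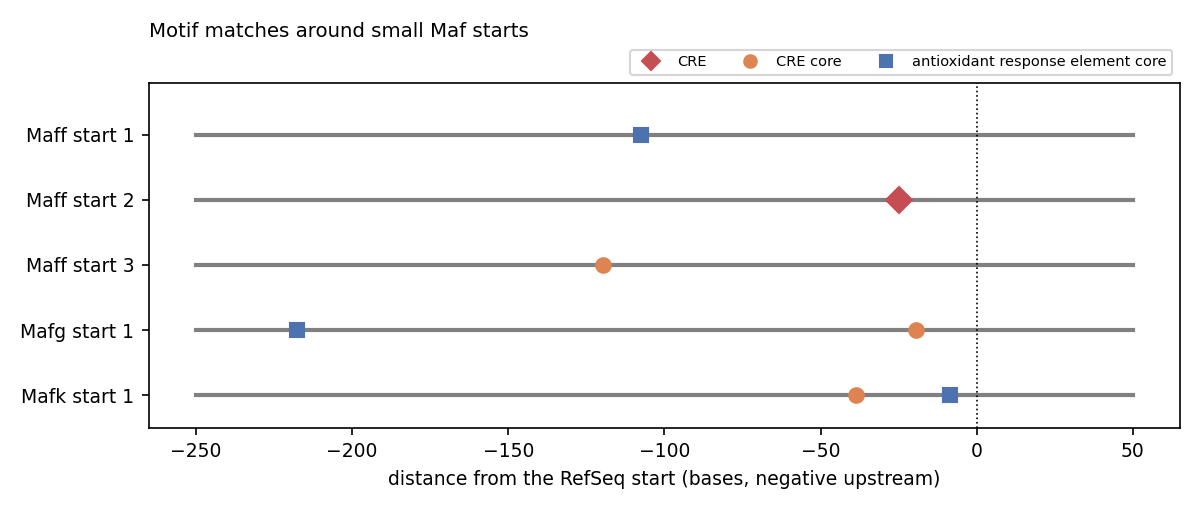
Motif matches in the 5 RefSeq windows of Maff (starts 1 to 3), Mafg and Mafk, by distance in bases from the start, negative upstream. The full CRE of Maff (start 2, that of Maff-201) begins at position -29, and the CRE cores of Mafg and Mafk begin at positions -22 and -41.

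All 3 small Maf genes were higher with PTH, by unequal amounts: Maff 4.45-fold, Mafk 2.76-fold and Mafg 1.25-fold in mean FPKM. Maff stood at 2.83, 4.17 and 2.79 FPKM in vehicle 1, 2 and 3 and at 13.9, 14.2 and 15.4 FPKM in PTH 1, 2 and 3. Its lowest PTH library was far above its highest vehicle library, and vehicle 2 was the highest of the vehicle libraries. Its vehicle mean was 3.27 ± 0.787 FPKM and its PTH mean 14.5 ± 0.788 FPKM (SD, n = 3 each). The rise was 2.01 as a difference of log2(FPKM + 0.5), a scale that understates changes of low genes (SE 0.14; adjusted p = 9.4e-05 by limma, threshold 0.05).

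Mafk, the member best known as a partner of the erythroid CNC factor Nfe2, stood at 3.02, 3.75 and 3.29 FPKM under vehicle and at 9.36, 9.35 and 9.08 FPKM under PTH. The groups did not overlap, and the PTH libraries lay close together. Its means were 3.35 ± 0.372 and 9.26 ± 0.161 FPKM (SD, n = 3 each), which is 1.34 higher on the log2 scale (SE 0.08; adjusted p = 4.6e-05 by limma). Mafg, the most abundant member, stood at 16.7, 18.1 and 16.7 FPKM in vehicle and at 21.8, 22.6 and 20.2 FPKM with PTH. The groups again did not overlap, though PTH 3 exceeded vehicle 2 by little. Its means were 17.2 ± 0.791 and 21.5 ± 1.19 FPKM (SD, n = 3 each), which is 0.32 higher on the log2 scale (SE 0.06; adjusted p = 0.00425 by limma). In cultures measured in bulk, more RNA per cell and more cells that express a gene cannot be told apart.

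These 3 calls stand against a background in which 51.7% of the 11628 genes tested were called, 10.8% higher and 41.0% lower with PTH, and in which 13.1% of genes had all PTH libraries above all vehicle libraries. Ranked by log2 change, Maff was number 140 from the top, Mafk number 261 and Mafg number 1024. Relative to the median change of all genes, the rises were 2.16, 1.50 and 0.47. With centred libraries 18.3% of genes were called higher and 24.0% lower, and Mafg rose by 0.44 (limma adjusted p = 0.00155). Rescaled to TPM (a fixed total per library), the Mafg value was 0.41 and did not pass (limma adjusted p = 0.124). For each gene alone the exact permutation test, two-sided, gave p = 0.1; with 3 libraries per group no smaller value is possible.

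**Figure D2:**
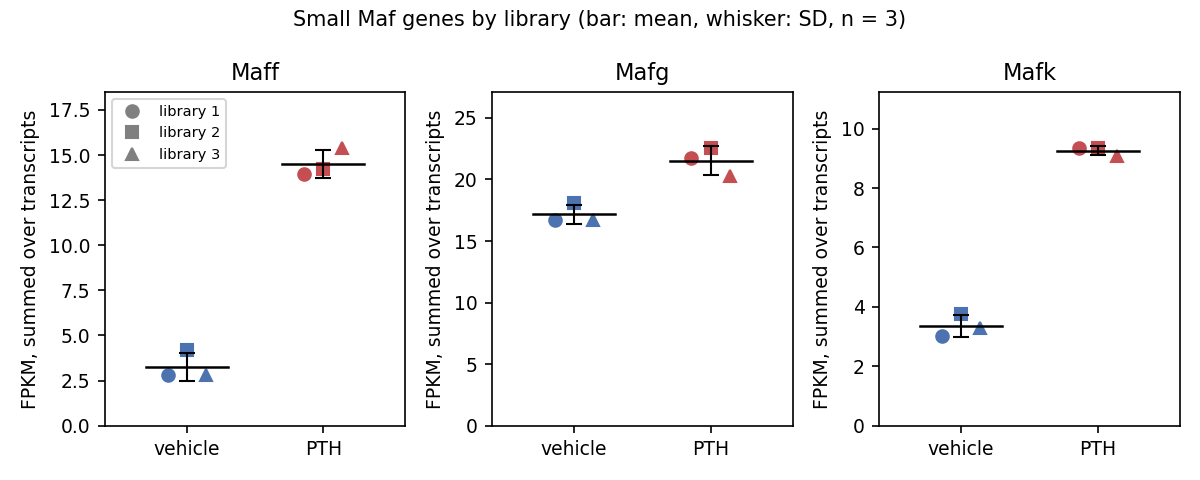
FPKM of Maff, Mafg and Mafk (sum of their transcripts) in the 3 vehicle and 3 PTH libraries; points are libraries, bars the group mean and whiskers the SD. All PTH points lie above all vehicle points for each gene, with the smallest gap for Mafg.

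The sizes of the 3 rises differed by more than the spread between libraries. The log2 ratio of Maff to Mafg within a library was -2.37, -1.99 and -2.39 in vehicle and -0.63, -0.65 and -0.38 with PTH, a difference of 1.70 (SE 0.15). The ratio of Maff to Mafk went from -0.08, 0.14 and -0.21 to 0.55, 0.58 and 0.73, a difference of 0.67 (SE 0.11). That of Mafg to Mafk went from 2.29, 2.13 and 2.18 to 1.17, 1.23 and 1.12, a difference of -1.03 (SE 0.06). The groups did not overlap in any of the 3 ratios, of which the third follows from the other 2. How many pairs of genes separate in this way was not counted. A common scaling factor per library leaves these ratios as they are, apart from the added 0.5. With the highest transcript of each gene alone, the Maff to Mafk difference was smaller, at 0.42 (SE 0.16). Each exact permutation test, two-sided, gave p = 0.1, also 0.1 after Benjamini-Hochberg adjustment over the 3 pairs, and a smaller value is not possible with these libraries.

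The order of the levels differed between the groups below the first place. In vehicle, Mafg was the highest in all 3 libraries at a mean of 5.41 times Maff and 5.14 times Mafk. Maff and Mafk could not be ordered there, since the ratio of Maff to Mafk was 0.938, 1.11 and 0.847. With PTH, Mafg remained the highest at 1.49 ± 0.152 times Maff (SD, n = 3), and Maff exceeded Mafk in all 3 libraries at 1.57 ± 0.113 times its level (SD, n = 3). The summed FPKM of the 3 genes rose 1.90-fold in its mean, from 22.6, 26.0 and 22.8 in vehicle to 45.0, 46.1 and 44.7 with PTH, without overlap of the groups (exact permutation test, two-sided, p = 0.1).

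Most of the larger sum came from the 2 members that were low in vehicle. Maff made up 12.5%, 16.0% and 12.3% of the summed FPKM in vehicle and 30.9%, 30.8% and 34.4% with PTH. The share was higher by 18.4 percentage points with PTH (SE 1.71; exact permutation test, two-sided, p = 0.1). Mafk went from 14.1% ± 0.624 to 20.4% ± 0.298 (SD, n = 3 each) and Mafg from 72.3% ± 2.44 to 47.5% ± 1.97 (SD, n = 3 each).

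**Figure D3:**
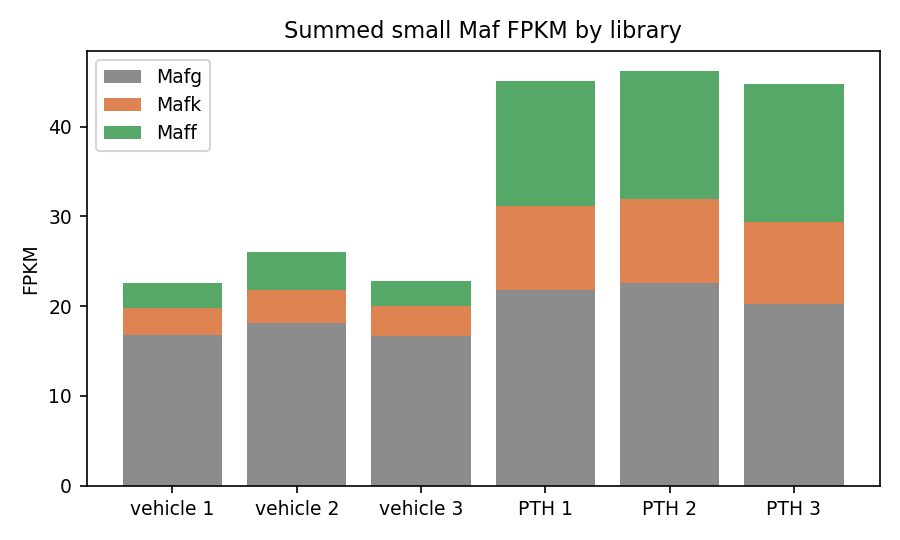
Summed FPKM of Mafg, Mafk and Maff in each of the 6 libraries, stacked by gene. The bars reach 22.6 to 26.0 FPKM in vehicle and 44.7 to 46.1 FPKM with PTH, and the Maff segment grows from between 12.3% and 16.0% of the bar to between 30.8% and 34.4%.

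The same comparison was made for single transcripts, of which 6 of the 8 reached a mean of 1 FPKM and were tested. Higher levels with PTH were called for 4 of these 6, against 8.13% of the 21983 transcripts tested, and none of the 6 was called lower. Of these 4, Maff-202 reached the mean of 1 FPKM only through the PTH libraries (vehicle mean 0.329, PTH mean 3.33 FPKM). Its call is therefore not independent of the filter. Maff is listed with 2 transcripts that begin at different first exons and encode the same 156 residues. Maff-201 (ENSMUST00000096350, start at 79347520) is the one whose window holds the full CRE. Maff-202 starts further downstream of that CRE, and its own start has no window. Maff-201 stood at 2.45, 3.83 and 2.53 FPKM in vehicle and at 11.3, 9.86 and 12.4 FPKM with PTH. This is 1.78 higher on the log2 scale (SE 0.17, adjusted p = 0.000854 by limma). Maff-202 (ENSMUST00000163691, start at 79348064) stood at 0.381, 0.340 and 0.264 FPKM in vehicle and at 2.65, 4.35 and 2.98 FPKM with PTH, which is 2.19 higher on the log2 scale (SE 0.19; adjusted p = 0.000649 by limma). Both listed transcripts were thus higher with PTH, with no overlap of the groups. The share of all transcripts tested that separate in this way was not counted. These are FPKM estimates per transcript, and the first exons were not measured on their own.

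Maff-202 made up 13.4%, 8.16% and 9.48% of the Maff FPKM in vehicle and 19.0%, 30.6% and 19.4% with PTH (exact permutation test, two-sided, p = 0.1). The limma diffSplice test of unequal change between the transcripts did not call Maff (adjusted p = 0.384), where 11.7% of the 4818 genes tested were called. That value moved with the added constant, to an adjusted p of 0.0525 with 0.1 and 0.915 with 1, and in simulated data the test made more false calls than its threshold allows. A different response of the transcripts of Maff was therefore not resolved.

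Mafg-201 (ENSMUST00000058162), the full-length transcript with 162 coded residues, was the Mafg transcript that passed the test. It stood at 11.5, 13.3 and 11.7 FPKM in vehicle and at 15.5, 16.1 and 15.1 FPKM with PTH, which is 0.35 higher on the log2 scale (SE 0.07; adjusted p = 0.0122 by limma); as TPM it did not pass (limma adjusted p = 0.187). Mafg-204, which begins inside the gene and codes for the same residues, had a log2 difference of 0.23 (SE 0.13, limma adjusted p = 0.217). The noncoding Mafg-205 had one of 0.12 (SE 0.13, limma adjusted p = 0.510). Mafg-201 made up 70.7% ± 2.44 of the Mafg FPKM in vehicle and 72.5% ± 1.81 with PTH (SD, n = 3 each; exact permutation test, two-sided, p = 0.4), and diffSplice did not call Mafg (adjusted p = 0.480). Mafg-202 lay between 0.192 and 0.532 FPKM and was not tested.

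Mafk-201 (ENSMUST00000018287, 156 coded residues) held 94.6% ± 3.76 of the Mafk FPKM in vehicle and 96.6% ± 1.21 with PTH (SD, n = 3 each). It went from 2.98, 3.50 and 3.02 FPKM to 9.15, 9.05 and 8.65 FPKM, which is 1.37 higher on the log2 scale (SE 0.08; adjusted p = 0.000142 by limma). Mafk-202, with an internal first exon, lay between 0.0356 and 0.427 FPKM with overlapping groups and was not tested. With no filter, diffSplice called Mafk for unequal change of its transcripts (adjusted p = 0.00587), where 12.5% of the 7382 genes tested were called, and that call rests on the low Mafk-202. The last 124 bases of Mafg overlap Sirt7 on the same strand; Sirt7, a deacetylase gene, fell by 0.37 (SE 0.05, limma adjusted p = 0.00170). The last 169 bases of Mafk overlap Tmem184a on the other strand, which was not among the genes tested. How the authors' counting divided such reads is not given in the sources used here.

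**Figure D4:**
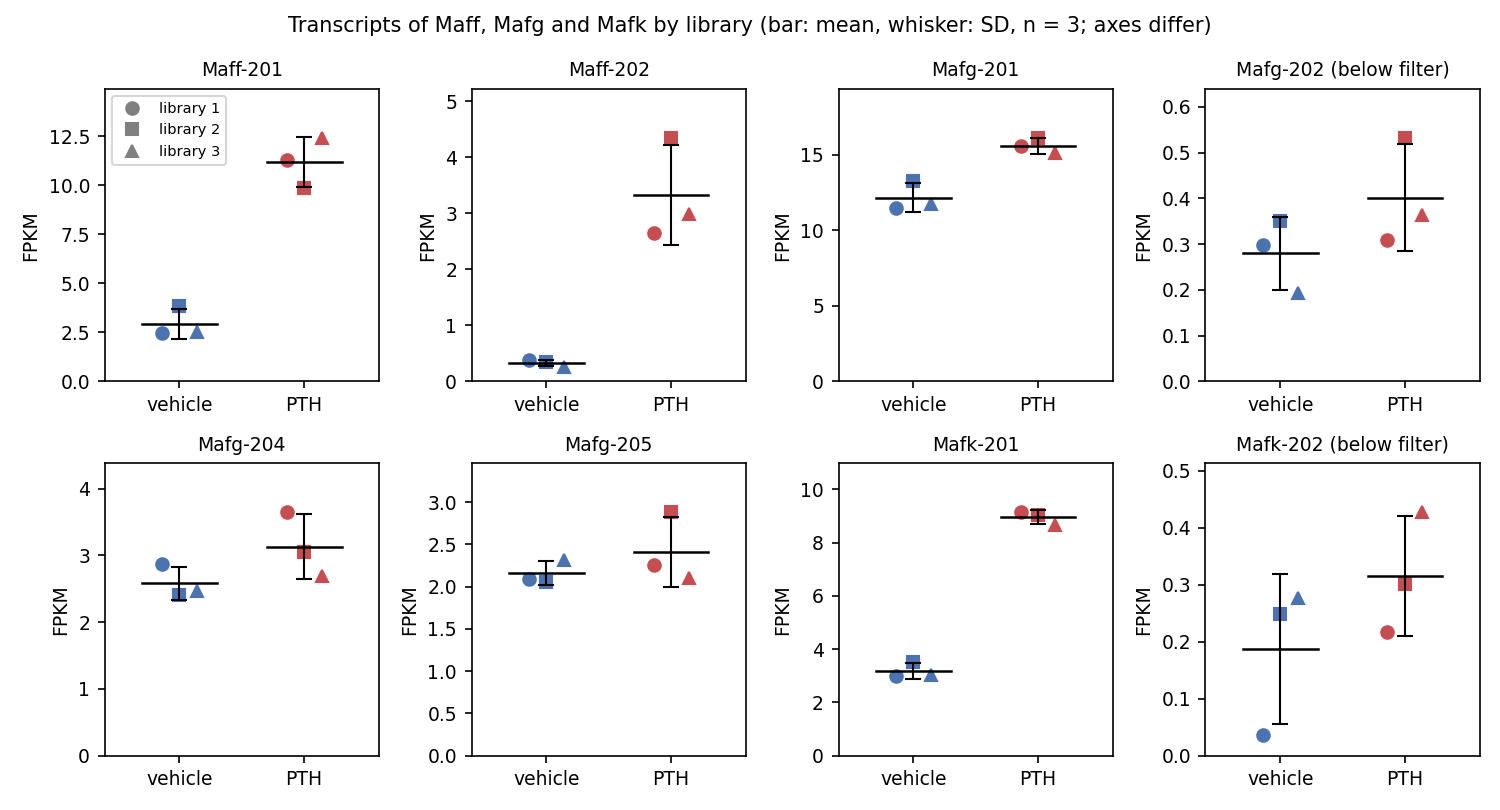
FPKM of the 8 listed transcripts of the small Maf genes by library; points are libraries, bars the group mean, whiskers the SD, and each panel has its own axis from 0. The PTH points lie above the vehicle points without overlap for Maff-201, Maff-202, Mafg-201 and Mafk-201, and the groups overlap for the other 4. How common such separation is among all transcripts was not counted.

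The authors' deposited table holds its own comparison per transcript, between groups named q1 and q2. Of the 1127 transcripts with a difference of at least 1 in log2(mean FPKM + 0.5) between PTH and vehicle, 1124 had the same sign in the authors' deposited table as q2 over q1. The authors' deposited table marks the same 4 transcripts as significant, where 7.62% of all its transcripts are so marked. Each of the 4 has a q-value of 0.00111 there. Their log2 changes there are 2.13 for Maff-201, 3.57 for Maff-202, 0.53 for Mafg-201 and 1.66 for Mafk-201. The log2 change in the authors' deposited table exceeded that of the library columns by a median of 0.16 over transcripts.

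The partners of the small Maf proteins moved as well. Bach1, the repressor that competes with Nrf2 for small Maf partners, stood at 7.09, 7.96 and 6.41 FPKM in vehicle and at 53.4, 55.5 and 53.8 FPKM with PTH, which is 2.84 higher on the log2 scale (SE 0.08; adjusted p = 1.6e-06 by limma). Nfe2l2, which encodes Nrf2, stood at 64.5, 79.6 and 67.0 FPKM in vehicle and at 252.4, 279.1 and 241.8 FPKM with PTH, which is 1.87 higher on the log2 scale (SE 0.09; adjusted p = 2.3e-05 by limma). Keap1, the adaptor for Nrf2 degradation, stood at 14.3, 13.4 and 13.7 FPKM in vehicle and at 9.39, 8.98 and 8.42 FPKM with PTH and fell by 0.60 on the log2 scale (SE 0.06, limma adjusted p = 0.000297). The groups did not overlap in Bach1 and Nfe2l2, where 13.1% of all genes tested had all PTH libraries above all vehicle libraries. Keap1 was lower in every PTH library than in any vehicle library. The share of all genes with that pattern was not counted, and 41.0% of all genes tested were called lower.

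Nfe2l1, a CNC factor known for control of proteasome genes, stood at 35.5, 35.9 and 35.2 FPKM in vehicle and at 43.1, 40.0 and 30.8 FPKM with PTH. The difference of 0.08 on the log2 scale (SE 0.12) missed the threshold (adjusted p = 0.600 by limma), with PTH 3 below the vehicle libraries and the other PTH libraries above them; without PTH 3 it was 0.22 and passed (limma adjusted p = 0.0199). Bach2, a repressor best known in lymphocytes, was low at 0.400 to 0.786 FPKM in vehicle and 0.819 to 1.11 FPKM with PTH and was not tested. Of the 7 genes listed as CNC partners and Keap1, 4 were tested, 2 rose and 1 fell. Of all genes tested, 51.7% were called, 10.8% higher and 41.0% lower. Nfe2 and Nfe2l3 were not analysed here.

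As a summed FPKM, the CNC genes differed more between the groups than the small Maf genes. By single gene this did not hold throughout: Maff rose by 2.01 on the log2 scale, Nfe2l2 by 1.87, and Nfe2l1 was not called. Nfe2l1, Nfe2l2, Bach1 and Bach2 together had 113.6 ± 9.20 FPKM in vehicle and 350.9 ± 24.1 FPKM with PTH (SD, n = 3 each). The summed small Maf FPKM was 0.210, 0.209 and 0.209 of the CNC sum in the vehicle libraries and 0.129, 0.123 and 0.137 of it in the PTH libraries. Within the CNC genes, the ratio of Nfe2l2 to Bach1 went from 9.09, 10.0 and 10.5 to 4.72, 5.02 and 4.49. The groups did not overlap in either ratio (exact permutation tests, two-sided, p = 0.1 each); these ratios were chosen after the values were seen.

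Among the large Maf factors, which carry the activation domain that small Maf proteins lack, Maf stood at 12.0, 9.18 and 10.9 FPKM in vehicle and at 19.0, 18.3 and 18.1 FPKM with PTH. It rose by 0.77 on the log2 scale (SE 0.09, limma adjusted p = 0.000782). Mafa, known from pancreatic beta cells, stayed between 0.238 and 0.609 FPKM and was not tested, and Nrl was not analysed here.

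Genes with established antioxidant response elements, the sites that CNC and small Maf pairs bind, moved unevenly. Of 25 tested, 8 rose and 2 fell, where 10.8% of all genes tested were called higher and 41.0% lower, and their median log2 change was 0.06 beside -0.15 over all genes. With centred libraries 11 rose and 0 fell, where 18.3% and 24.0% of all genes did, and the medians were 0.18 and -0.03. With the replicate block and centring, 15 rose and 2 fell, where 24.9% and 30.9% of all genes did. As TPM 4 rose and 0 fell, where 7.40% and 9.96% of all genes did. The largest rise was in Gclc, the catalytic subunit of the enzyme that limits glutathione synthesis, from 6.88, 8.21 and 7.28 FPKM to 18.8, 17.7 and 19.0 FPKM (log2 1.26, SE 0.07, limma adjusted p = 4.5e-05). Osgin1, an oxidative stress-induced growth inhibitor, rose by 0.98 (SE 0.13), Fth1, the ferritin heavy chain, by 0.89 (SE 0.06), and the malic enzyme Me1 by 0.67 (SE 0.08). Fth1 stood at 1337 ± 47.2 FPKM in vehicle and 2479 ± 147 FPKM with PTH (SD, n = 3 each), the highest level on the list.

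The members of this list that fell were Idh1, a cytosolic isocitrate dehydrogenase (-0.36, SE 0.10, limma adjusted p = 0.0194), and Cat, the catalase gene (-0.27, SE 0.06, limma adjusted p = 0.0102). Neither passed with centred libraries (limma adjusted p = 0.0847 and 0.0876), both passed with the replicate block and centring together (0.00292 and 0.0382), and Idh1 did not pass without vehicle 3 or without PTH 2 (limma adjusted p = 0.0595 and 0.0560). The textbook targets Hmox1 and Nqo1 are named here after their values were seen. Hmox1, heme oxygenase, stood at 15.2 ± 0.558 FPKM in vehicle and 16.7 ± 0.676 FPKM with PTH (SD, n = 3 each; limma adjusted p = 0.0786); it passed with the replicate block and centring together (0.00638). Nqo1, a quinone reductase, stood at 9.14 ± 0.655 and 7.93 ± 1.88 FPKM (SD, n = 3 each; limma adjusted p = 0.313). Srxn1, sulfiredoxin, was below the level for testing, at 0.231 to 0.505 FPKM in vehicle and 0.904 to 1.52 FPKM with PTH, and Slc7a11 was not analysed here.

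**Figure D5:**
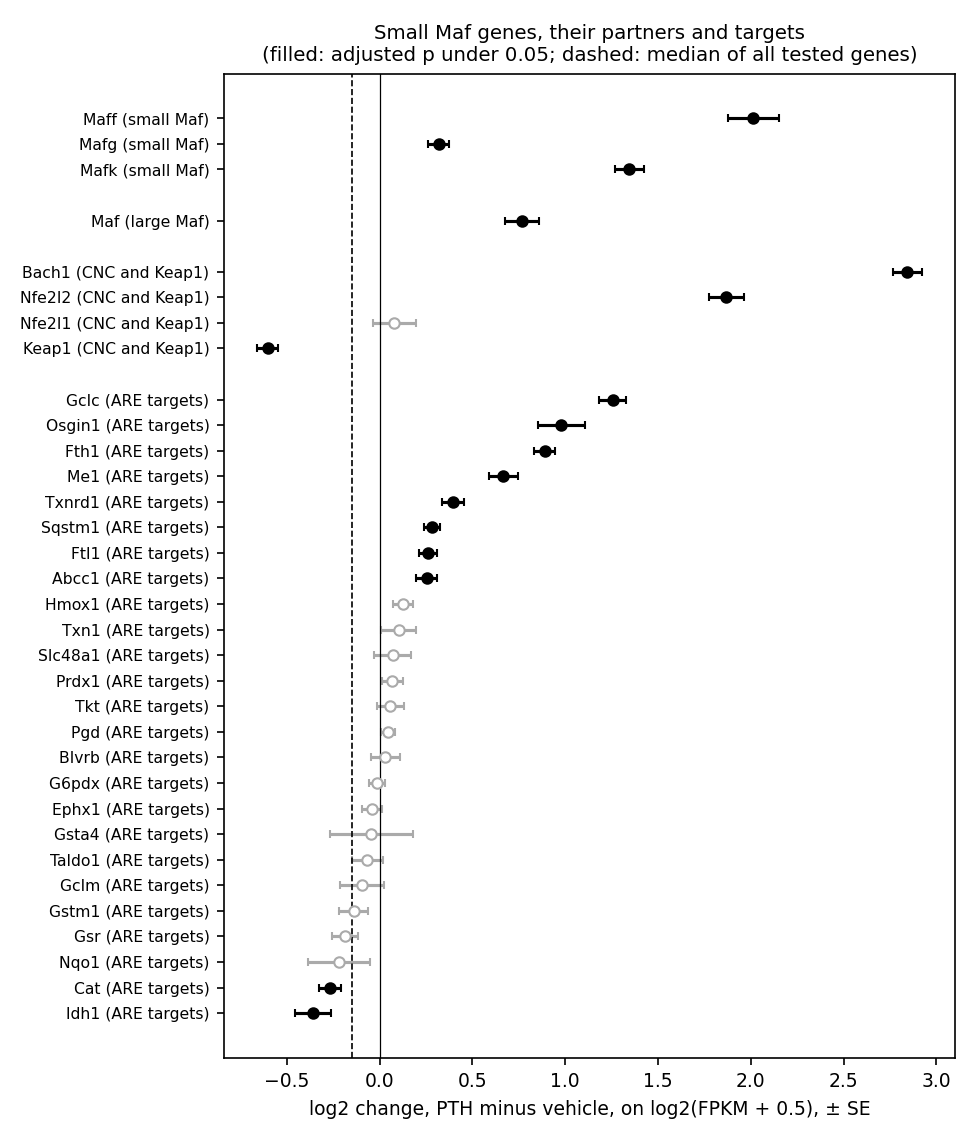
Log2 change (PTH minus vehicle, on log2(FPKM + 0.5)) with its SE for the small Maf genes, Maf, the tested CNC genes with Keap1, and the tested antioxidant response element (ARE) targets, 3 libraries per group. Filled points passed the threshold; Bach1, Maff, Nfe2l2 and Mafk lie to the right of every ARE target, of which Gclc is the highest at 1.26.

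Other bZIP genes give a scale for these changes. Of 27 tested outside the Maf and CNC families, 12 rose and 6 fell, where 10.8% of all genes were called higher and 41.0% lower, with a median log2 change of 0.25 beside -0.15 over all genes. With centred libraries 13 rose and 2 fell, where 18.3% and 24.0% of all genes did, with medians of 0.37 and -0.03. The genes closest in size to Maff were Fosb (1.38, SE 0.11), an AP-1 subunit, Jdp2 (1.10, SE 0.05), a repressor of AP-1, and Cebpb (3.14, SE 0.10), a C/EBP factor, so the Maff rise fell in a gap between these genes. For Mafk they were Fosb and Jdp2 again and the stress-induced Atf3 (0.89, SE 0.34), which did not pass (limma adjusted p = 0.0640) and did with the replicate block (0.00572), without vehicle 2 (0.00471) and with quantile, cyclic loess or TPM scaling. For Mafg they were Atf4 (0.25, SE 0.07), the factor of the integrated stress response, Cebpz (0.25, SE 0.06) and Xbp1 (0.23, SE 0.10), a factor of the unfolded protein response. The Atf4 call was lost without vehicle 1, without vehicle 3 and without PTH 2 (limma adjusted p = 0.0553, 0.0674 and 0.0653). Xbp1 did not pass (limma adjusted p = 0.112) and did with the replicate block (0.00159) and with centred libraries (0.0372).

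Over all tested genes, the pattern most like that of each member was sought as the smallest distance between log2 values over the 6 libraries, each taken relative to the gene's vehicle mean. Closest to Maff were Pdpn (distance 0.35), a membrane glycoprotein of early osteocytes, Nfkbiz (0.35), a nuclear inhibitor-like partner of NF-kB, Vps37b (0.36), a subunit of the ESCRT-I sorting complex, Gadd45b (0.36), a stress-induced growth arrest gene, and Sphk1 (0.37), sphingosine kinase. Closest to Mafk were BC018507 (0.14), Homer1 (0.15), a scaffold protein known from synapses, Hilpda (0.16), a lipid droplet protein induced in hypoxia, St3gal1 (0.18), a sialyltransferase, and Nfkbie (0.18), an inhibitor of NF-kB. Closest to Mafg were Hpcal1 (0.06), a calcium sensor, Fam76a (0.09), Slc25a3 (0.09), the mitochondrial phosphate carrier, Zfp655 (0.10) and Tenc1 (0.10). Distances are smaller for small changes, so they are not comparable between the members. The Maff neighbours had higher levels, with PTH means of 22.8 (Vps37b) to 202.7 FPKM (Pdpn) beside 14.5 FPKM for Maff.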

How the data were processed

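RNA from MC3T3-E1 cells was isolated with TRIzol and made into stranded mRNA libraries, sequenced as paired reads of 100 bases, per the labels' protocols. The authors estimated transcript abundance as FPKM with Cufflinks, per the labels' protocols; mm10 is named in the submitters' processing notes. The sources used here name no aligner, tool version or annotation release. That deposited table also holds the authors' log2 fold change, p-value and q-value per transcript and a test statistic that was not used, per the file headers; its 2 columns of group values were not used either. It covers 37478 transcripts, and 1 line was empty.

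FPKM was summed per symbol, and 19 symbols turned into dates stayed in the tests unnamed. The test was limma 3.58.1 (R 4.3.3; intensity trend, two-sided) on log2(FPKM + 0.5) for the 11628 genes averaging 1 FPKM or more, Benjamini-Hochberg adjusted, threshold 0.05, no block. The same was run on 21983 transcripts, with diffSplice for unequal change, and both were tested on simulated data. Single ratios and shares were tested by exact permutation over libraries. Precision is limited by 3 libraries per group, and no counting interval can be given. Coordinates are from GENCODE M21 (GRCm38, the assembly of mm10), 1-based, and promoter letters from RefSeq on GRCm38.p6. Python 3.11.15, pandas 2.3.3 and matplotlib 3.10.9 were used.

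Libraries with the same number deviated together from their group means (correlations across genes of 0.42, 0.28 and 0.28 for numbers 1, 2 and 3). All other vehicle and PTH pairs were negative. The labels do not say what the numbers mark, so a pairing by number was read from the data. The main limma fit and the exact permutation tests did not use this pairing, and the replicate block did. The members and the gene lists were chosen with earlier results of these data known. Named were the members, all listed CNC, Keap1 and large Maf genes (except an item not reported here), up to 4 called antioxidant response element targets with the largest rises and falls, the 3 other bZIP genes closest to each member and the 5 genes of closest pattern (no Gm, Rik, Mir, Snor or date-like symbols).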

Additional observations from a re-analysis of the deposited data

How the results depend on the processing

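The rises of Maff and Mafk kept their direction and passed under every alternative tried: the replicate block, median centring, both together, quantile normalisation, cyclic loess, TPM, added constants of 0.1 and 1, no filter, a minimum of 5 FPKM, the highest transcript alone (Maff 1.78) and each library left out. With each library left out, Maff ran from 1.93 to 2.18, highest without vehicle 2; cyclic loess gave 2.25. The replicate block left the members' log2 changes at 2.01, 0.32 and 1.34 (limma adjusted p = 9.8e-05, 0.00110 and 5.3e-05). Among the genes named it added the calls of Atf3, Xbp1, Col2a1, Pth1r and Ibsp given above. Antioxidant response element targets then numbered 8 higher and 3 lower, other bZIP genes 15 and 7. Of all genes tested with that block, 13.8% were called higher and 49.97% lower. Mafg lost its call as TPM (0.41, limma adjusted p = 0.124); without Mir and Snor genes in the total, chosen after seeing the data, it was 0.44 and passed (0.00868). The calls of Atf4, Cat, Idh1, Cebpz, Fam76a, Hpcal1, Slc25a3, Tenc1 and Zfp655 were also lost as TPM, that of Atf4 also with quantile normalisation (0.0962), that of Cat with cyclic loess (0.104) and that of Zfp655 with its highest transcript alone (0.10, adjusted p = 0.242 by limma). Of all genes 6017 were called, 2018 as TPM and 2895 as TPM without Mir and Snor genes. Called antioxidant response element targets numbered 17 with the replicate block and centring and 4 as TPM, beside 10. Of the large Maf genes 2 were called with no filter, Maf higher and Mafa lower, where 10.2% of all genes were called higher and 38.1% lower. The Nfe2l1 difference changed sign to -0.19 with its highest transcript alone and ran from -0.017 to 0.22 with each library left out. The cause of these shifts was not tested. With 3 libraries per group and unknown depth, transcripts under 1 FPKM were not resolved, and Maff-202 was under that level in vehicle.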
